A study of Mus musculus with 8 samples.

Results

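Bone marrow stroma feeds and holds blood-forming cells through a small set of secreted factors, surface proteins and transcription factors. The genes described here are 10 such niche factors, chosen by name: the secreted or membrane-bound ligands Cxcl12, Kitl, Angpt1 and Il7, the surface proteins Lepr and Vcam1, and the transcription factors Foxc1, Ebf1, Ebf2 and Ebf3. All 10 were found among the 47643 named entries of the expression table, and all 10 passed the filter on low counts that left 15327 genes to test.

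The study asked what loss of Mettl3, the methyltransferase that writes N6-methyladenosine (m6A) on mRNA, does to bone marrow mesenchymal stem cells (MSCs) of C57BL/6 mice. RNA-seq was done on 2 libraries labelled wild type (WT), whose cells the study describes as Mettl3fl/fl, and on 2 libraries from Prx1-Cre;Mettl3fl/fl mice (cKO). For m6A, 2 immunoprecipitates and 2 inputs were made from wild type cells, and they share 1 deposited peak list, so no peak could be compared between genotypes. Every culture had spent 2 days in osteogenic medium, with ascorbic acid, β-glycerophosphate and 100 nM dexamethasone.

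Prx1-Cre is driven by a promoter of the early limb bud mesenchyme and removes exon 2 and exon 3 of the floxed Mettl3 allele. The cells are primary adherent marrow cells in culture, and the number of animals per library, their age and their sex are not given in the sources used here. The labels do not say that the libraries came from separate animals or cultures, so p-values measure only the spread between these libraries.

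In the marrow, perivascular stromal cells called CXCL12-abundant reticular (CAR) cells, most of which also carry the leptin receptor, are the main source of Cxcl12 and Kitl. Cxcl12 retains blood stem cells and B cell precursors through its receptor Cxcr4, Kitl maintains stem cells through Kit, and Il7 drives early lymphoid growth. Foxc1, Ebf1 and Ebf3 are transcription factors that such cells need to stay a niche rather than turn to fat or bone. An mRNA that carries m6A can be bound by reader proteins that change its decay or translation.

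Mettl3 itself was measured at 17.6 and 16.9 counts per 1000000 (CPM) in the WT libraries and at 17.5 and 16.3 CPM in the cKO libraries, a log2 fold change of −0.03 with an edgeR adjusted p of 0.824. The count covers the whole gene, so it cannot show the loss of exon 2 and exon 3, and the libraries are called WT and cKO after their labels. For mice of this genotype, the study reported the deletion by immunostaining and western blot, and a reduced m6A level in MSCs. Total counts ran from 23978099 to 34106693 per library. The WT pair was far less alike than the cKO pair, with a biological coefficient of variation of 12.3% against 1.90%. A chi-square statistic over genes was 32.6 times its expectation in the WT pair and 1.82 times in the cKO pair, so the cKO libraries also differed by more than counting noise. Stromal markers were plentiful in every library, with a summed level of 1039 to 1087 transcripts per 1000000 (TPM) over 10 markers. Ly6a and Col1a1 made up most of it. Ly6a was at 461 and 493 TPM in WT and 426 and 406 TPM in cKO. Col1a1 was at 434 and 432 TPM in WT and 297 and 306 TPM in cKO. The near-equal sums do not show that single markers were unchanged. Macrophage markers were more abundant still in sum, at 16310 TPM in WT replicate 1, 21920 in WT replicate 2, 23617 in cKO replicate 1 and 23806 in cKO replicate 2. Most of that sum was Lyz2 alone, at 14417.8, 20116.8, 21565.5 and 21709.3 TPM in the same order. The whole culture was therefore measured, and fewer cells making a factor and less RNA per cell cannot be told apart.

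The m6A list held peaks on 4 niche factors, Cxcl12, Kitl, Foxc1 and Ebf1, and 6 peaks in all. For each peak, the stretch around a motif is printed below because a methylated adenosine of the writer complex's DRACH motif could lie there. Capitals mark the GGAC nearest to the summit, or, where no GGAC lay in the exonic part of the peak, the nearest of GAAC, AGAC and AAAC. Where a GGAC was present, other forms of the motif were not sought and can lie nearer to the summit. The sequences are mouse mm9 on the plus strand, which is the coding strand of all 4 genes, and run 5′ to 3′.
Cxcl12, chr6:117123603-117123632, 3′UTR: acaacagcccaaaGGACtttccagtagacc
Kitl, first peak, chr10:99558836-99558865, 3′UTR: tctgcacggagcaGGACtctggaggttttg
Kitl, second peak, chr10:99559243-99559272, 3′UTR: ctactagagaaatGGACatgggtagctagt
Foxc1, first peak, chr13:31899411-31899440, coding: tccccttctatcgGGACaataagcagggct
Foxc1, second peak, chr13:31900617-31900646, coding: agcggatcggcttGAACaactccccggtga
Ebf1, chr11:44818316-44818345, 3′UTR: gagtcccagagtgGAACttttaactcaggc

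The Cxcl12 peak (chr6:117123439-117123741) had its summit 43 nucleotides after the stop codon, in the 3′UTR of the transcript Cxcl12-001, whose last exon is exon 3 of 3. Its GGAC began 16 nucleotides after the stop codon and 27 nucleotides from the summit. In the transcript with the longest coding part, Cxcl12-003, the same bases are intron, and the summit was exonic in 2 of 4 annotated transcripts. With a pileup of 157 it was the peak ranked 412 of 10160 by signal, but its fold enrichment over the local background was only 2.71, and 16.7% of listed peaks had less.

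Kitl showed the reverse: low pileup and high enrichment. Its first peak (chr10:99558683-99558963) reached a fold enrichment of 10.3, above 97.7% of listed peaks, and its second (chr10:99559119-99559374) reached 8.79, while the pileup was 32 at both summits against a median of 60 over the list. Both lay early in the 4432-nucleotide 3′UTR in exon 10 of 10 of Kitl-001, with summits 241 and 656 nucleotides after the stop codon. The first summit was exonic in 3 of 4 annotated transcripts and the second in 1 of 4.

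Foxc1 has a single exon, and both of its summits were in coding sequence. The first peak (chr13:31899226-31899623) lay 1271 nucleotides before the stop codon, had a fold enrichment of 3.47 and a pileup of 77, and held 8 GGAC. The second (chr13:31900541-31900776) lay 61 nucleotides before the stop codon, had a fold enrichment of 4.92 and a pileup of 50, and held no GGAC.

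The Ebf1 peak (chr11:44818064-44818360) had the lowest pileup of the 6, at 17, and the lowest −log10 q, at 4.90, below which 7.27% of listed peaks fell. Its fold enrichment of 4.18 was above those of the Cxcl12 peak and the first Foxc1 peak. Its summit was in coding sequence of exon 16 of 16 of Ebf1-002, 24 nucleotides before the stop codon, and the GAAC printed above lay 103 nucleotides from the summit. Across the niche factors, summits were thus in the 3′UTR in 3 peaks and in coding sequence in 3. A GGAC was held by 4 of 6 peaks, and each of these 4 had one within the 101 bases centred on its summit. For comparison, 60.2% of the 9397 peaks inside genes had a GGAC within the 101 bases centred on the summit, and 77.3% had GAAC, AGAC or AAAC there. Letters alone mark no methylated base.

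**Figure D1:**
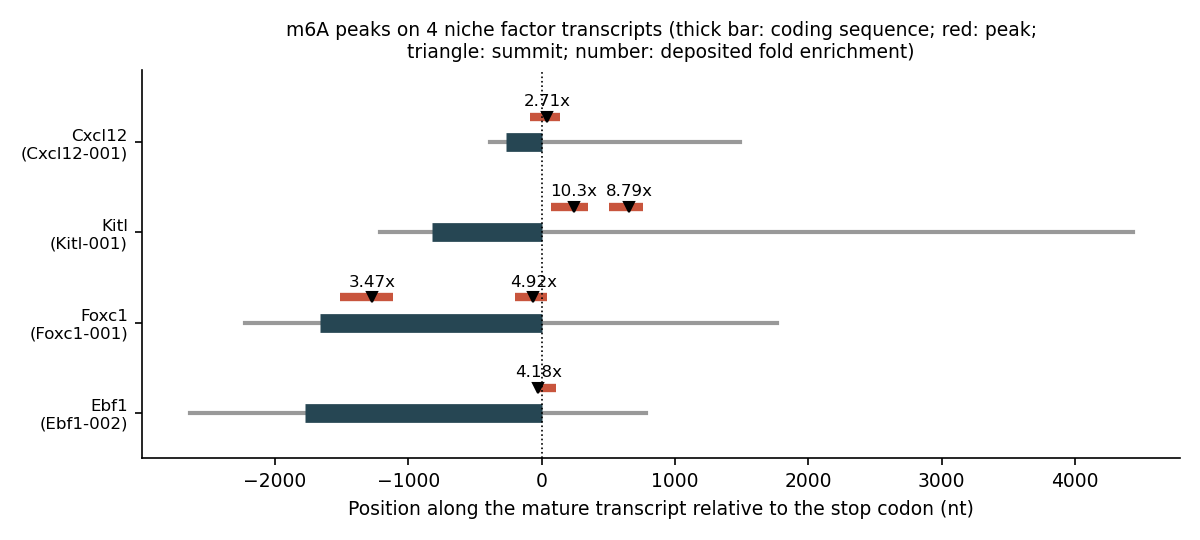
Position of the 6 m6A peaks on the mature transcripts that hold them, in nucleotides from the stop codon, with the coding part as a thick bar and the UTRs as thin lines, to scale. Each red bar is a peak, each triangle its summit and each number its fold enrichment. The Cxcl12 and Ebf1 peaks begin in the preceding intron and are drawn from the start of the exon that holds the summit. Summits of Cxcl12, Ebf1 and the second Foxc1 peak lie within 61 nucleotides of the stop codon.

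Lepr, Vcam1, Angpt1, Il7, Ebf2 and Ebf3 had no listed peak. A share of 4 in 10 was near the background, since 42.9% of the 12847 protein-coding genes at 0.435 TPM or more in the WT libraries, the level of the lowest member, had at least 1 peak. At 10 TPM or more, a limit set after the levels were seen, 4 of 6 niche factors had a peak, against 47.2% of 7843 genes. In the transcripts with the longest coding part, GGAC was counted 26 times in Ebf3, 20 in Ebf2, 17 in Lepr, 9 in Angpt1, 8 in Vcam1 and 7 in Il7, which had no peak. It was counted 25 times in Cxcl12, 19 in Kitl, 18 in Foxc1 and 9 in Ebf1, which had one, so the ranges overlapped. Per kilobase they overlapped too, at 2.63 to 4.51 with a peak and 2.11 to 5.18 without. The transcript counted for Cxcl12 was Cxcl12-003, in which the summit is intronic. Lepr, without a peak, was also the lowest of the 10 in level in the WT libraries.

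Levels between genes were compared per length, in TPM. In the WT libraries Cxcl12 stood highest at 203 ± 49.4 TPM (SD, n = 2), followed by Foxc1 at 46.01 ± 8.60, Vcam1 at 29.3 ± 8.84 and Kitl at 27.6 ± 5.28. The Vcam1 and Kitl values overlapped, so their order is not set. Ebf1 followed at 16.2 ± 3.28 TPM, Angpt1 at 13.0 ± 0.417 and Ebf3 at 4.34 ± 0.297. Ebf2 at 1.88 ± 0.396 and Il7 at 1.42 ± 0.255 overlapped, and Lepr was lowest at 0.435 ± 0.233. Cxcl12 was thus at the 94.6th percentile of tested genes by mean level over all 4 libraries and Lepr at the 5.70th.

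In the cKO libraries Ebf2 moved up past Ebf3 and Angpt1 in that order, to 16.4 ± 0.205 TPM, next to Ebf1 at 17.1 ± 0.530, and no neighbouring genes overlapped. Cxcl12 was still highest at 136 ± 1.47 TPM. It made up 61.8% and 55.7% of the summed TPM of the 10 genes in the WT libraries and 54.8% and 55.2% in the cKO libraries. That sum was 385 and 301 TPM in WT and 247 and 249 TPM in cKO.

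**Figure D2:**
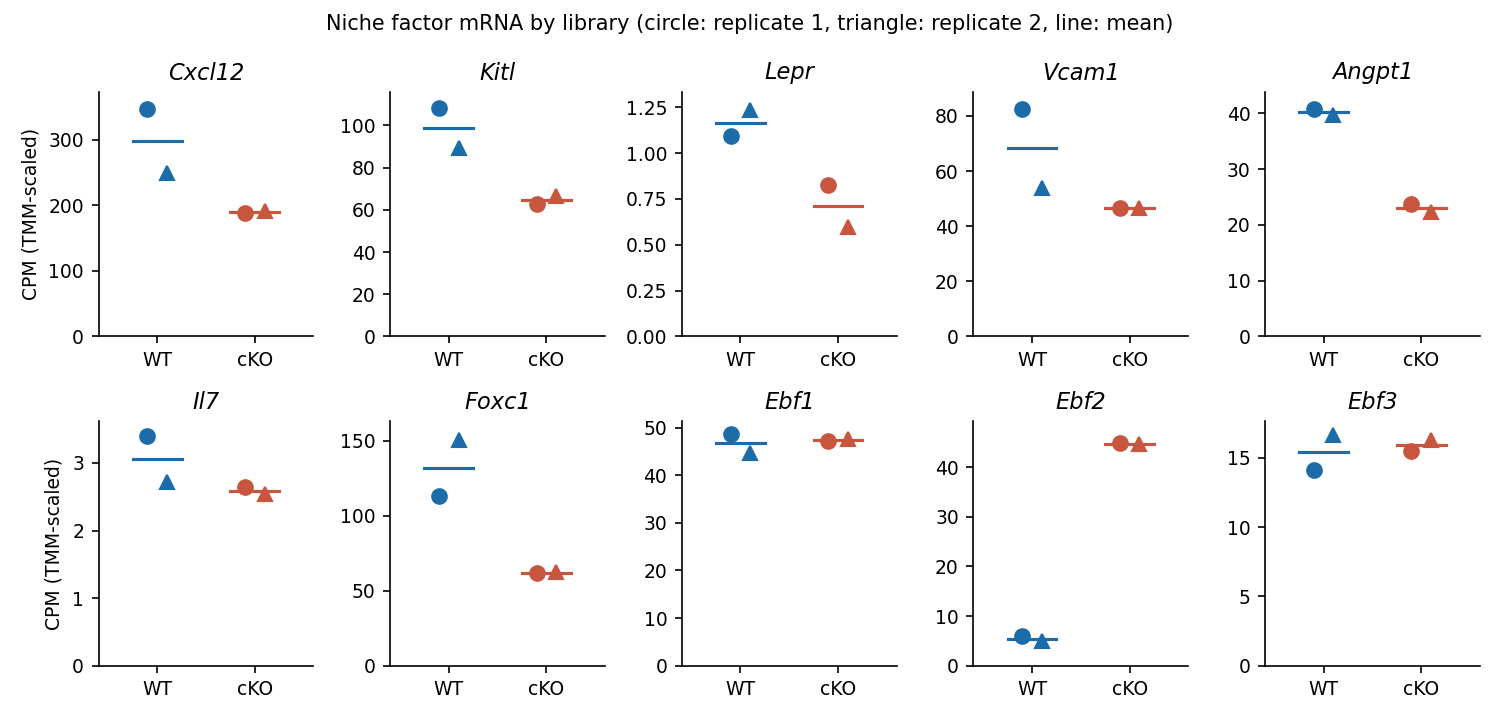
CPM of each of the 10 niche factors, 1 panel per gene with its own linear axis from 0. A circle is replicate 1, a triangle replicate 2 and a line the group mean. The cKO points lie below both WT points for 7 genes, above both for Ebf2, and among them for Ebf1 and Ebf3.

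Between the genotypes, 4 niche factors were lower in the cKO libraries (Cxcl12, Kitl, Angpt1 and Foxc1), 1 was higher (Ebf2), and 5 did not pass the test (Lepr, Vcam1, Il7, Ebf1 and Ebf3). A gene was called at an adjusted p under 0.05 in edgeR's quasi-likelihood test, fitted on all 15327 genes. Of those genes, 16.8% were called lower and 13.7% higher, 30.5% in all. The median log2 fold change of the 10 was −0.58, against −0.0038 over all genes tested. In CPM, both cKO libraries lay below both WT libraries in 7 niche factors and above in 1. The share of all genes in these positions was 35.0% and 33.9%. In TPM, the groups overlapped for Lepr (0.27 and 0.6 in WT, 0.21 and 0.28 in cKO). They also overlapped in TPM for Il7 (1.6 and 1.24 in WT, 1.56 and 1.49 in cKO). Called changes of 2-fold or more were found for 2 members, Ebf2 and Foxc1, and for 9.2% of all genes.

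**Figure D3:**
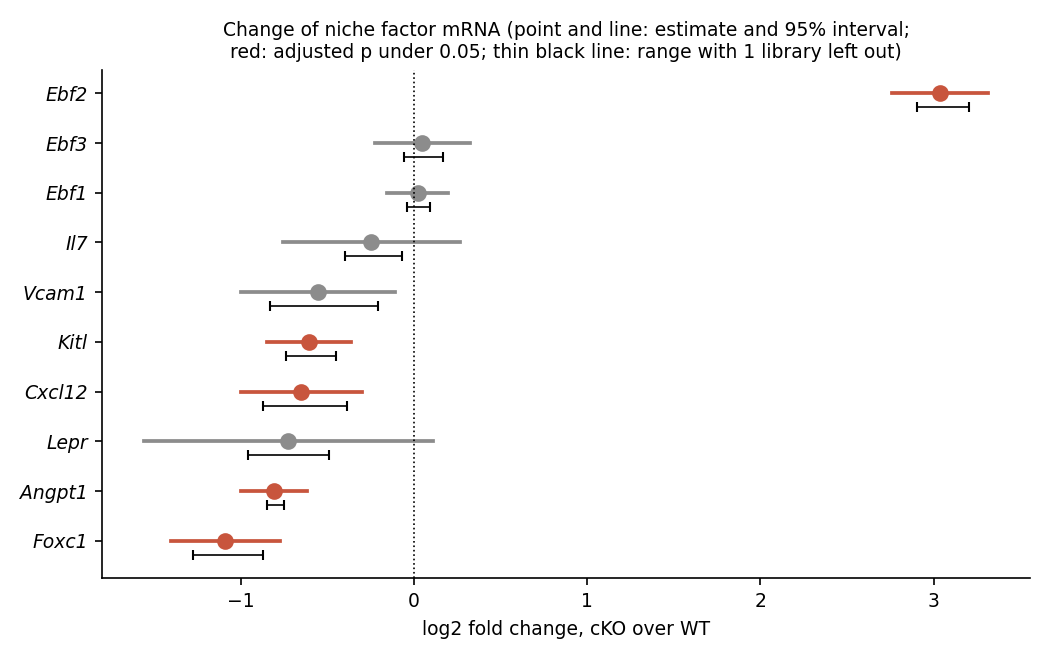
Log2 fold change of each niche factor, cKO over WT, with its 95% confidence interval from the edgeR fit, in red where called, and the range over fits without 1 library as a thin black line. Ebf2 is at 3.04, Foxc1 at −1.09, and the intervals of Lepr, Il7, Ebf1 and Ebf3 cross 0.

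Among the ligands, Cxcl12 (ENSMUSG00000061353, GRCm38 chr6:117168535-117181367, plus strand) was at 347 and 249.5 CPM in the WT libraries and at 188.8 and 191.1 CPM in the cKO libraries. The groups did not overlap, but the WT libraries lay further from each other than WT replicate 2 did from the cKO pair. It fell by 0.65 on the log2 scale (SE 0.145, 95% interval −1.0 to −0.30, edgeR adjusted p = 0.0184), and WT was 1.57-fold higher. Leaving out cKO replicate 1 or cKO replicate 2 ended the call (adjusted p = 0.0602 and 0.0530), as did summing them to 1 sample (0.0518), and without WT replicate 1 the fold change was −0.39. limma on log2 TPM did not call it either, with adjusted p = 0.105 and 0.107 at pseudocounts of 0.1 and 1.

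Kitl, also known as stem cell factor (ENSMUSG00000019966, chr10:100015630-100100413, plus strand), was at 108.1 and 89.2 CPM in WT and at 62.7 and 66.8 CPM in cKO. Both cKO libraries were below both WT libraries, by more than the WT libraries differed from each other. It fell by 0.61 on the log2 scale (SE 0.101, 95% interval −0.85 to −0.36, edgeR adjusted p = 0.00636). On log2 TPM, limma gave adjusted p = 0.0894 and 0.0924.

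Angpt1 (ENSMUSG00000022309, chr15:42424727-42676977, minus strand) encodes a ligand of the receptor Tek that quiets endothelial and stem cells. It was at 40.8 and 39.7 CPM in WT and at 23.8 and 22.2 CPM in cKO, and the libraries of each group were close together. It fell by 0.81 on the log2 scale (SE 0.0785, 95% interval −1.0 to −0.62, edgeR adjusted p = 0.000838), 1.75-fold in all, and its call held without any 1 library.

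Il7 (ENSMUSG00000040329, chr3:7569994-7613760, minus strand) was low, at 3.40 and 2.72 CPM in WT and 2.64 and 2.54 CPM in cKO. The cKO libraries lay just under the lower WT library in CPM, but between the WT libraries in TPM. The log2 fold change of −0.25 (95% interval −0.76 to 0.26) did not pass the test (edgeR adjusted p = 0.425), and on log2 TPM its sign turned, to 0.11 at a pseudocount of 0.1. Gm16685, an entry on the opposite strand within Il7, averaged 5.75 counts per library, and whether reads were counted by strand is not stated.

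Of the surface proteins, Vcam1, to which blood cells bind through the integrin α4β1 (ENSMUSG00000027962, chr3:116109949-116129688, minus strand), was at 82.7 and 54.0 CPM in WT and at 46.7 and 46.4 CPM in cKO. Both cKO libraries were lower, though WT replicate 2 came near them. The log2 fold change of −0.55 (SE 0.184, 95% interval −1.0 to −0.11) missed the threshold (edgeR adjusted p = 0.0653). It was −0.21 without WT replicate 1 and −0.83 without WT replicate 2, and passed in both fits (adjusted p = 0.00062 and 6.35e-60), whose spread rests on the close cKO pair. DESeq2 also called it lower (adjusted p = 0.00641).

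Lepr, the leptin receptor that marks perisinusoidal stroma in vivo (ENSMUSG00000057722, chr4:101717404-101815352, plus strand), had only 37 and 35 counts in the WT libraries and 20 and 19 in the cKO libraries, or 1.09 and 1.24 against 0.825 and 0.596 CPM. Both cKO values were the lower ones in CPM, while in TPM the groups overlapped. The log2 fold change of −0.72 had an interval of −1.56 to 0.11 (edgeR adjusted p = 0.163), so a change was not detectable at this depth. The defining marker of Lepr-rich niche stroma was thus near the limit of detection in both groups.

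Foxc1 (ENSMUSG00000050295, chr13:31806691-31810643, plus strand), a forkhead factor needed for CAR cells to form, was at 113.5 and 150.8 CPM in WT and at 61.9 and 62.3 CPM in cKO. Both cKO libraries were far below both WT libraries. It fell by 1.09 on the log2 scale (SE 0.131, 95% interval −1.40 to −0.77, edgeR adjusted p = 0.0019), and WT was 2.13-fold higher. Its paralog Foxc2, named here with other partners of the members after values were seen, fell by 2.59 on the same scale (edgeR adjusted p = 1.5e-05), from 56.5 and 62.8 CPM to 9.95 and 9.85 CPM.

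The EBF factors, a family of helix-loop-helix proteins with a shared DNA-binding domain, did not move together. Ebf2 (ENSMUSG00000022053, chr14:67233292-67430918, plus strand), which is known in stroma and brown fat precursors, was at 5.97 and 4.88 CPM in WT and at 44.9 and 44.6 CPM in cKO. The cKO libraries were almost equal and both were many times above WT. It rose by 3.04 on the log2 scale (SE 0.114, 95% interval 2.76 to 3.31, edgeR adjusted p = 2.01e-05), an 8.20-fold difference that ranked 68 of 15327 among all genes by log2 fold change.

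Ebf1 (ENSMUSG00000057098, chr11:44617317-45008091, plus strand) was at 48.7 and 44.8 CPM in WT and at 47.3 and 47.6 CPM in cKO. Ebf3 (ENSMUSG00000010476, chr7:137193673-137314445, minus strand) was at 14.1 and 16.7 CPM in WT and at 15.5 and 16.3 CPM in cKO. In both genes the cKO values lay between the WT values. The log2 fold change was 0.02 for Ebf1 (95% interval −0.15 to 0.20, edgeR adjusted p = 0.854) and 0.05 for Ebf3 (95% interval −0.23 to 0.32, adjusted p = 0.787). These intervals leave out a change of the size of Ebf2 in either direction.

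The family changed in makeup. Ebf1, Ebf2, Ebf3 and Ebf4 summed to 24.8 and 20.2 TPM in the WT libraries and to 39.2 and 38.4 TPM in the cKO libraries. Ebf2 made up 8.70% and 7.92% of the sum in WT and 42.1% and 42.3% in cKO, and Ebf1 went from 74.4% and 68.4% to 44.6% and 43.6%. Ebf4 made up at most 1.59% of the sum in any library and did not pass the test (log2 fold change 1.76, edgeR adjusted p = 0.0517).

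**Figure D4:**
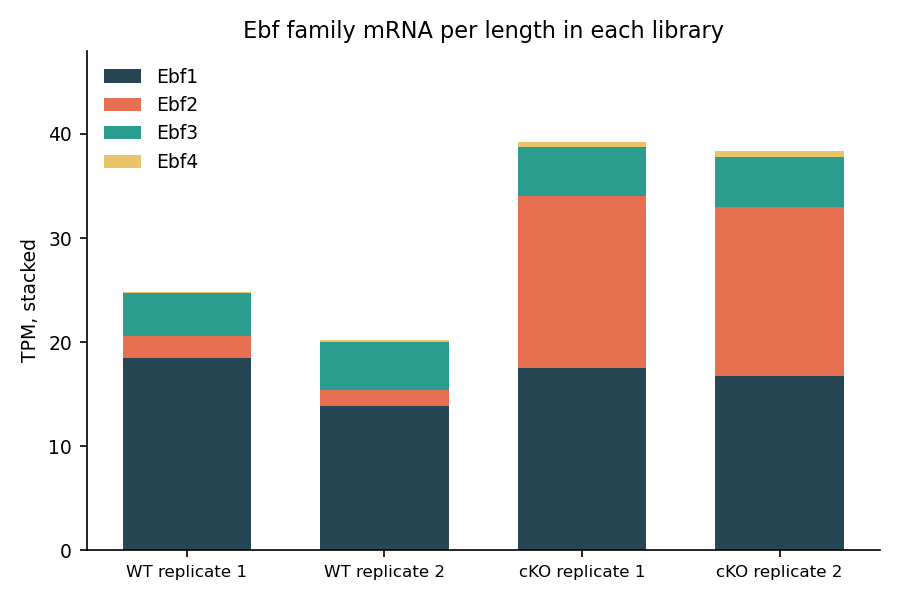
TPM of Ebf1, Ebf2, Ebf3 and Ebf4 stacked in each of the 4 libraries, from 0. The Ebf1 layer is 18.5 and 13.8 TPM in WT and 17.5 and 16.7 TPM in cKO, and the Ebf2 layer is 2.16 and 1.6 TPM in WT and 16.5 and 16.2 TPM in cKO.

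Genes of other cell types can make some of the same factors: macrophages and endothelium make Vcam1, endothelium also makes Kitl and Cxcl12, and B-lineage cells make Ebf1. Of 7 macrophage markers, 1 (Ptprc) was higher in cKO, and none was lower. Of 7 endothelial markers, 3 (Kdr, Emcn and Vwf) were higher, and the summed level went from 4.91 and 5.12 TPM in WT to 12.2 and 11.6 TPM in cKO. That rise came mostly from Emcn and Kdr. Vwf did not add to it, at 3.61 and 3.71 TPM in WT and 2.66 and 3.57 TPM in cKO. In CPM, on which its call rests, Vwf was at 7.39 and 6.44 in WT and 9.29 and 9.54 in cKO. The measures thus went opposite ways for Vwf. The defining markers Pecam1, Cdh5 and Tie1 were at most at 0.414 CPM in any library. In CPM, both cKO libraries were below both WT libraries for Pecam1, not tested, and Cdh5, not called (log2 fold change −1.16, edgeR adjusted p = 0.128). Tie1 went the other way, at 2 counts or fewer. B-lineage markers summed to at most 1.03 TPM, with Igll1 at 0 throughout. Neutrophil markers summed to 17.2 and 19.2 TPM in WT against 5.11 and 2.37 TPM in cKO, with Mpo, Ngp and S100a9 at 0. Nearly all of that sum was S100a8, at 17.18 and 18.72 TPM in WT and 5.02 and 2.37 TPM in cKO. Erythroid markers had at most 4 counts. Megakaryocyte markers summed to 53.6, 9.59, 23.5 and 23.7 TPM in the same order of libraries, of which Pf4 made up 50.93, 6.91, 19.69 and 21.77 TPM. Of 10 stromal markers, 5 were higher and 5 lower. The part of these differences in the values of the niche factors was not tested.

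The other genes of the niche were read from 4 lists of 86 genes, of which 76 could be tested, with 25 called higher, 27 lower and a median log2 fold change of −0.02. Over all genes tested, 13.7% were called higher and 16.8% lower, and the companion lists are described by their counts, with no test of a list. Receptors and partners of the niche factors had 2 of 18 tested genes higher and 6 lower, with a median of −0.16. Itgb1, the β1 integrin chain and the most abundant of them, was at 903 and 878 CPM in WT and at 958 and 969.6 CPM in cKO and did not pass (log2 fold change 0.11, edgeR adjusted p = 0.17).

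Ackr3, a scavenging receptor that removes Cxcl12, had the largest called change of that list. It was at 24.7 and 18.5 CPM in WT and at 1.90 and 2.10 CPM in cKO, a log2 fold change of −3.43 (SE 0.192, edgeR adjusted p = 9.1e-05). Cxcr4, the signalling receptor of Cxcl12, rose by 0.77 on the log2 scale (adjusted p = 0.00781), from 112.8 and 152.5 CPM to 227 and 224 CPM. Both receptors of the same ligand thus passed, in opposite directions.

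Of the receptors of the other ligands, Kit fell by 1.34 on the log2 scale, from 7.57 and 7.36 CPM to 3.34 and 2.60 CPM (edgeR adjusted p = 0.00268). Il7r was at −0.27 (adjusted p = 0.273), the integrin chain Itga4 was at −0.11 (adjusted p = 0.311), and Tek had too few counts to test. Cxcr4, Kit, Il7r, Itga4 and Tek were singled out after their values were seen.

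Other niche cytokines had 6 of 20 tested genes higher and 8 lower, with a median of −0.20. Gas6, a ligand of TAM receptors and the most abundant of them, was at 2220 and 2208 CPM in WT and at 1270 and 1282 CPM in cKO (log2 fold change −0.80, edgeR adjusted p = 0.000198). Bmp6, a bone morphogenetic protein, had the largest change, from 0.68 and 0.92 CPM to 9.74 and 9.51 CPM (log2 fold change 3.59, adjusted p = 8.8e-05).

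Adhesion and matrix genes had 5 of 19 tested genes higher and 9 lower, with a median of −0.27. Spp1, the osteopontin gene and the most abundant, was at 5863 CPM in WT replicate 1 and 14630 CPM in WT replicate 2, against 5694 and 5626 CPM in cKO, and did not pass (edgeR adjusted p = 0.131). Angptl7 fell from 9.70 and 17.8 CPM in WT to 0.206 and 0.0941 CPM in cKO, which rest on 5 and 3 counts (log2 fold change −6.54, adjusted p = 0.000345).

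Regulators and lineage genes of CAR cells had 12 of 19 tested genes higher and 4 lower, with a median of 0.52, beside 13.7% higher and 16.8% lower over all genes. Id2, an inhibitor of helix-loop-helix factors and the most abundant, was at 236.7 and 207 CPM in WT and at 98.2 and 100.4 CPM in cKO (log2 fold change −1.16, edgeR adjusted p = 0.000198). Nr2f2, an orphan nuclear receptor, had the largest change, from 4.61 and 5.87 CPM to 45.5 and 46.5 CPM (log2 fold change 3.14, adjusted p = 2.3e-05).

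**Figure D5:**
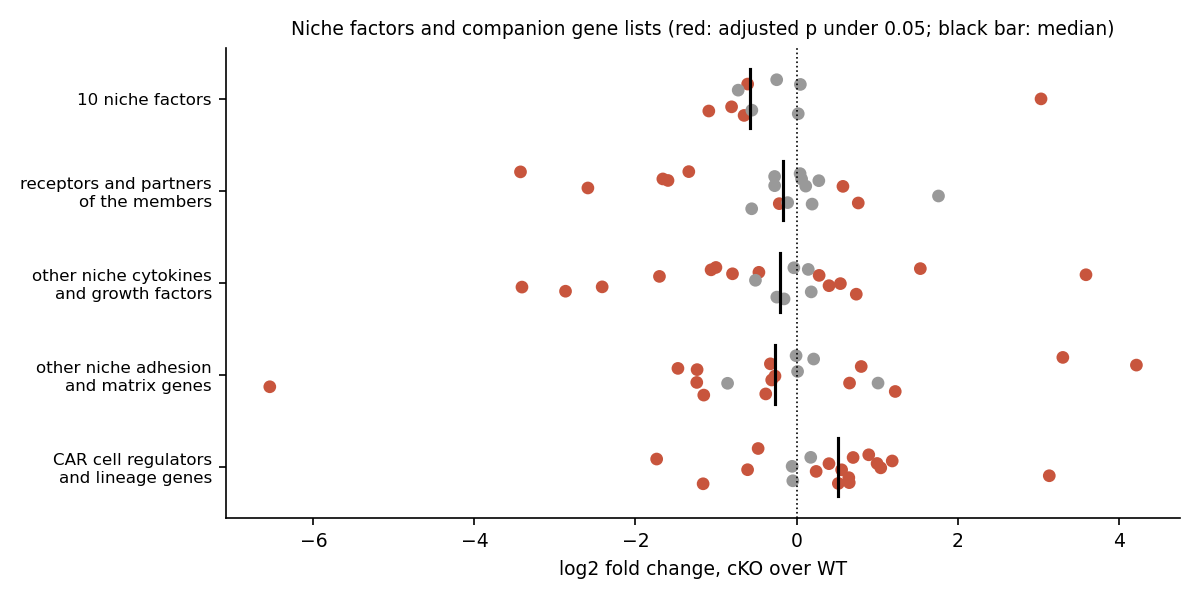
Log2 fold change, cKO over WT, of each tested gene among the 10 niche factors and in the 4 lists of other niche genes, with called genes in red and each list's median as a black bar. Lower calls outnumber higher calls in every list but the regulators, where 12 are higher and 4 lower. The point at 4.22 is Angptl1, with 1 and 0 counts in WT, so its place depends on the fit's prior count.

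Set side by side, m6A and expression gave no single pattern among the niche factors. Of the 4 genes with a peak in wild type cells, 3 fell (Cxcl12, Kitl and Foxc1) and Ebf1 did not pass. The calls of Cxcl12 and Kitl were lost in limma on log2 TPM. Of the 6 without a peak, Angpt1 fell, Ebf2 rose and 4 did not pass. Over all genes tested, with or without a peak, 16.8% were called lower and 13.7% higher. The shares among genes with a peak alone were not computed, and with so few niche factors no relation was tested.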

How the data were processed

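RNA-seq was measured in 4 libraries (2 WT, 2 cKO) and m6A in 4 wild type samples. The authors deposited estimated counts per gene, which were rounded here to whole numbers, and a column headed FPKM that sums to 1000000 in each library and is therefore read as TPM. HISAT2 2.0.4, TopHat, MACS2 and the builds mm10 and mm9 stand in the submitters' processing notes; the counter and its strand setting are not given in the sources used here. Positions in the expression table are GRCm38 (mm10). The deposited peak list, in the layout of MACS2, holds, for every peak, the signal of piled-up fragments at the summit, an enrichment ratio (fold over local background) and the q-value as −log10; whether samples were pooled is not stated. Its positions are mm9, and summits were placed on the GENCODE vM1 annotation of that build (coding before 3′UTR, 5′UTR and intron), whose sequence gave the printed windows.

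Of 47732 entries, the 89 without a gene name held 0.110% to 0.125% of counts and were left out. Genotypes were compared with edgeR 4.0.16 (R 4.3.3) by the quasi-likelihood test, two-sided, with TMM scaling, filterByExpr and genotype as the sole term, and Benjamini-Hochberg adjustment over all genes tested. The study's methods name Ballgown, whose kind of linear model was run as an alternative. The other alternatives were DESeq2 1.42.0, limma 3.58.1 on log2(TPM + 0.1) and log2(TPM + 1) for genes of at least 0.1 mean TPM, other size factors, no filter, a replicate block, and fits without each library or with the cKO libraries summed. The script was tested on simulated data with 200 changed genes. CPM used TMM library sizes, and fold changes are model estimates. Deviations of same-numbered WT and cKO libraries correlated at 0.026. With the cKO pair so alike, this value cannot show whether same-numbered libraries shared a batch. The main fit did not pair them, and the replicate block was the alternative that did.

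The text names every niche factor, the most abundant gene and the largest called change of each companion list, Mettl3, and genes said to be chosen after their values were seen. The members and lists were chosen with earlier results of these data known, and no list was tested as a set. Intervals are 95% intervals. A gene on the marker lists is not named here. Levels of 2 libraries per group give SDs of low precision.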

Additional observations from a re-analysis of the deposited data

How the results depend on the processing

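With 2 libraries per genotype, the calls rest on spread shared between genes. The 4 niche factors lower in cKO became 2 in limma on log2(TPM + 0.1), 2 on log2(TPM + 1) and 0 in an ordinary linear model per gene on log2(TPM + 1), where the 1 higher also became 0; at an unadjusted p under 0.05 that model had 2 lower and 1 higher. Of the companion genes, 25 higher became 0 in the ordinary model, and 27 lower became 17 in limma on log2(TPM + 1) and 0 in the ordinary model, which tested 79 genes, with 29 higher and 19 lower at an unadjusted p under 0.05. The ordinary model shares no spread between genes. What caused the lost calls was not tested. The fits on log2 TPM also had no TMM scaling. Their median log2 fold change over all genes was 0.090 at a pseudocount of 0.1 and 0.063 at 1, against −0.0038 in the main fit. The part of this shift in the lost calls was not tested. Over all genes, 4677 calls (2100 higher, 2577 lower) compared with 30 and 38 in the ordinary model, 1372 and 1162 in limma on log2(TPM + 0.1), 1338 and 1134 on log2(TPM + 1), 793 and 1219 with the cKO libraries summed, 735 and 1169 without cKO replicate 1, 724 and 1143 without cKO replicate 2, 4255 and 4495 without WT replicate 1, and 3826 and 4108 without WT replicate 2. Fits without a WT library take their spread from the cKO pair alone, with the lone WT library assumed to vary as that pair does.

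The replicate block gave 1 niche factor higher and 5 lower, adding Vcam1 (−0.52, adjusted p = 0.0115), and changed no other member's call. Without 1 library, Ebf1 ran from −0.040 to 0.091 and Ebf3 from −0.059 to 0.17, turning sign at values near 0. Il7 turned to 0.11 in limma on log2(TPM + 0.1) and to 0.065 in limma and the ordinary model on log2(TPM + 1). Foxc1, Angpt1 and Ebf2 kept their direction in all 12 alternatives and their call in all but the ordinary model (adjusted p = 0.182, 0.103 and 0.0866). Of the 6 peaks, 5 on 3 genes remained at a −log10 q of at least 10, which removed that of Ebf1; by the longest coding transcript 2 summits instead of 3 were in a 3′UTR. Low counts limit Lepr and Il7.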
